A study of Bos taurus with 10 samples.

Results

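Genes of the Wnt pathway were followed in epithelial cells of the isthmus, the oviduct segment next to the uterus, of heifers (Bos taurus). The pregnant group comprised 5 libraries from heifers into which 50 in vitro produced presumptive zygotes had been transferred. The cyclic group comprised 5 libraries from heifers that had undergone a sham transfer. Members were the rows of the deposited table whose names were those of Wnt ligands, Frizzled and LRP5/6 or ROR receptors, R-spondins with the LGR receptors and the ligases RNF43 and ZNRF3, secreted antagonists, Dishevelled, AXIN and APC, TCF/LEF factors, the ligand-processing genes PORCN and WLS, and the planar polarity families VANGL, CELSR and PRICKLE. This gave 70 of the 24596 rows, of which 44 reached a mean of 1 RPKM over the 10 libraries and were tested among 12834 features.

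Wnt proteins are secreted glycoproteins that are lipid-modified by PORCN, carried to the cell surface by WLS and bound by Frizzled receptors with the co-receptor LRP5 or LRP6. Without ligand, a complex built on AXIN and APC marks beta-catenin (CTNNB1) for destruction. With ligand, Dishevelled (DVL) recruits AXIN to the membrane and beta-catenin reaches the TCF/LEF factors in the nucleus. R-spondins, through LGR4, LGR5 and LGR6, remove the ligases RNF43 and ZNRF3, which otherwise clear Frizzled from the surface. Another branch, without beta-catenin, uses VANGL, CELSR and PRICKLE to orient cells in the plane of the epithelium, and in the mouse oviduct it aligns cilia and folds.

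Recovered library totals ran from 16979985 to 26100133 reads in pregnant and from 9705283 to 18793306 reads in cyclic heifers, so that 1 read in a gene of 1 kilobase was worth 0.0383 to 0.103 RPKM, the unit of the table, which scales reads by gene length and library total. The tested members rested on 9 to 10173 reads per library, and 21 of the 44 on at least 100 reads in every library. Whether every library was made from its own animal is not said in the labels, and the p-values therefore cover only variation among these libraries, part of which may be technical. The 9 epithelial markers with values summed to 1491 to 4135 RPKM in pregnant and 3859 to 10012 RPKM in cyclic libraries, with overlap only between pregnant libraries 2 and 4 and cyclic library 2. Most of that sum was OVGP1, the oviductal glycoprotein, at 2049.7 ± 1163 RPKM in pregnant and 5760.0 ± 2172 RPKM in cyclic heifers (SD, n = 5 each). The other 8 summed to 706 to 847 RPKM in pregnant and 835 to 1250.4 RPKM in cyclic libraries. Of the 9, 7 were lower in pregnant heifers at an unadjusted p under 0.05 (limma-trend, 77.8%, against 11.9% of all features). Their median difference on the log2 scale was -0.73 over all 9, and only PAX8 and EPCAM fell outside those 7, at 0.02 and -0.14. The 17 stromal markers summed to 45.1 to 79.2 RPKM in pregnant and 94.5 to 151 RPKM in cyclic libraries, without overlap, and of these PDGFRB and FAP averaged under 0.1 RPKM. Without FBLN1 and SPARC, which carried most of that gap, the other 15 summed to 24.2 to 48.7 RPKM in pregnant and 31.8 to 82.2 RPKM in cyclic libraries, with overlap. Sums were 28.5 to 70.9 and 39.6 to 66.8 RPKM for 10 smooth muscle markers, 8.69 to 20.8 and 9 to 19.3 RPKM for 9 endothelial markers, and 27.4 to 39.6 and 30.8 to 44.7 RPKM for 12 leukocyte markers, in pregnant and cyclic libraries in that order. No marker of these lists was at 0 in all libraries, while TIE1 and CD79A also averaged under 0.1 RPKM. The part of these marker levels in the differences below was not tested. Fewer cells of a type and less RNA per cell cannot be told apart in such bulk samples. Pregnant library 4 and cyclic library 3 lay apart from the rest of their groups on the first principal component of all tested features, each toward the other group, while cyclic library 4, the one with the fewest reads, lay farthest out on the cyclic side.

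The most abundant member was LGR5, followed by LGR4, WLS, APC, WIF1 and WNT5A, and the means of the 44 tested members over all libraries spanned 1.06 RPKM for WNT9A to 142 RPKM for LGR5. In all, 12 members averaged at least 10 RPKM, 17 lay between 3 and 10 RPKM and 15 lower. Of the 26 members not tested, 16 averaged at least 0.1 RPKM, 10 lay below that, and among the latter WNT3 and DKK4 were listed at 0 in every library. Just outside the filter lay WNT2, ROR1, RSPO3 and LGR6, at means of 0.868, 0.858, 0.797 and 0.708 RPKM, and just inside it WNT9A, DKK3, PRICKLE4 and WNT5B, at 1.06, 1.15, 1.22 and 1.31 RPKM.

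**Figure D1:**
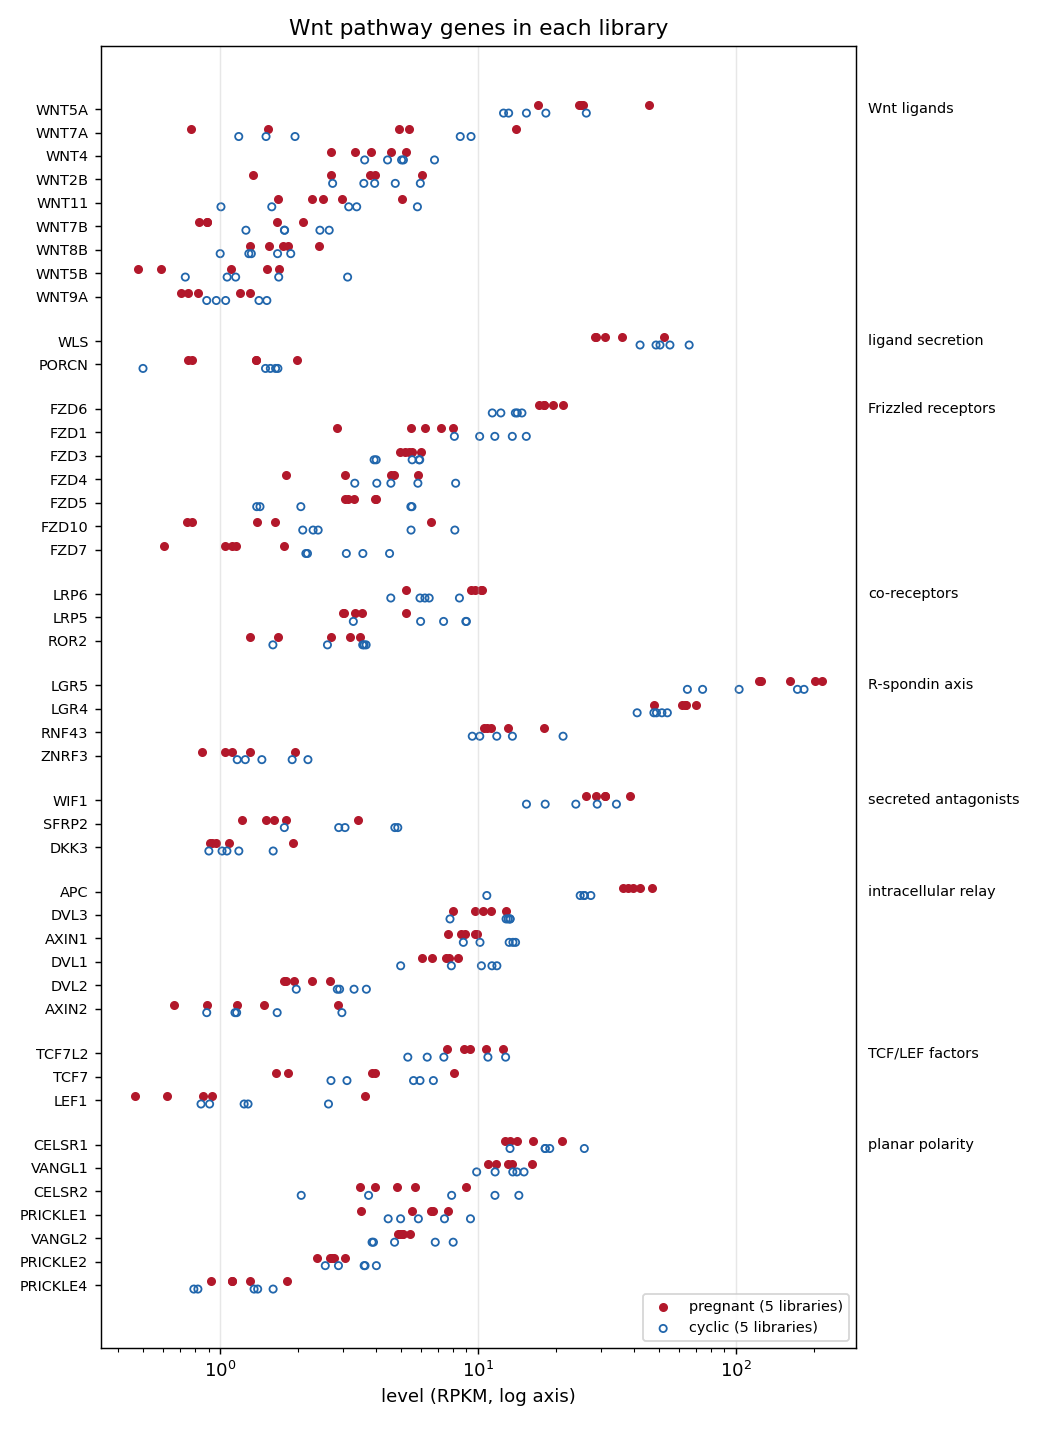
Level of each tested Wnt pathway gene in each library, in RPKM on a log axis, grouped by role. Filled red points are the 5 pregnant libraries and open blue points the 5 cyclic libraries. LGR5 lay highest, at 64.7 to 215 RPKM over the 10 libraries.

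No member passed an adjusted p of 0.05 in the comparison of pregnant with cyclic heifers (limma-trend on log2(RPKM + 1), Benjamini-Hochberg over 12834 features), as for all features, of which 0% passed. The smallest adjusted p among members was 0.0934, shared by FZD7, FZD6, APC and FZD1. At an unadjusted p under 0.05 stood 12 members (27.3%), against 27.5% of all features. Of these 5 were higher (11.4%, against 15.7% of all features) and 7 lower in pregnant heifers (15.9%, against 11.9%). With upper-quartile scaling the split was 2 higher and 8 lower, and over all features 1326 higher and 2230 lower in place of 2009 and 1525. In 4 members (9.09%, against 6.96% of all features) the libraries of the groups did not overlap, 2 of them higher and 2 lower (4.55% each, against 4.91% and 2.05% of all features). The shares of members past these limits lay near those of all features. The log2 difference was below 0 in 29 of 44 members (65.9%, against 49.1% of all features) and above 0 in the other 15 (34.1%, against 50.9%), with a median of -0.15 against 0.01. That median was -0.085 without pregnant library 2, -0.065 with no filter, -0.084 with a filter at a mean RPKM of 3, -0.23 with a pseudocount of 0.1, -0.26 with voom and -0.27 with voom and quality weights. Without cyclic library 3, 10 members passed an adjusted p of 0.05 (22.7%, against 17.2% of all features): FZD6 and APC were higher and LRP5, FZD7, AXIN1, FZD1, WLS, SFRP2, DVL2 and DVL1 lower in pregnant heifers. With array weights, which give libraries unequal weight, 14 passed (31.8%, against 37.3% of all features, and 37.6% where a trend was added). Voom on the recovered reads called 0 members without quality weights and 17 with them (38.6%, against 38.5% of all features). At a threshold of 0.1 for the adjusted p, 5 members passed (11.4%, against 7.93% of all features).

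**Figure D2:**
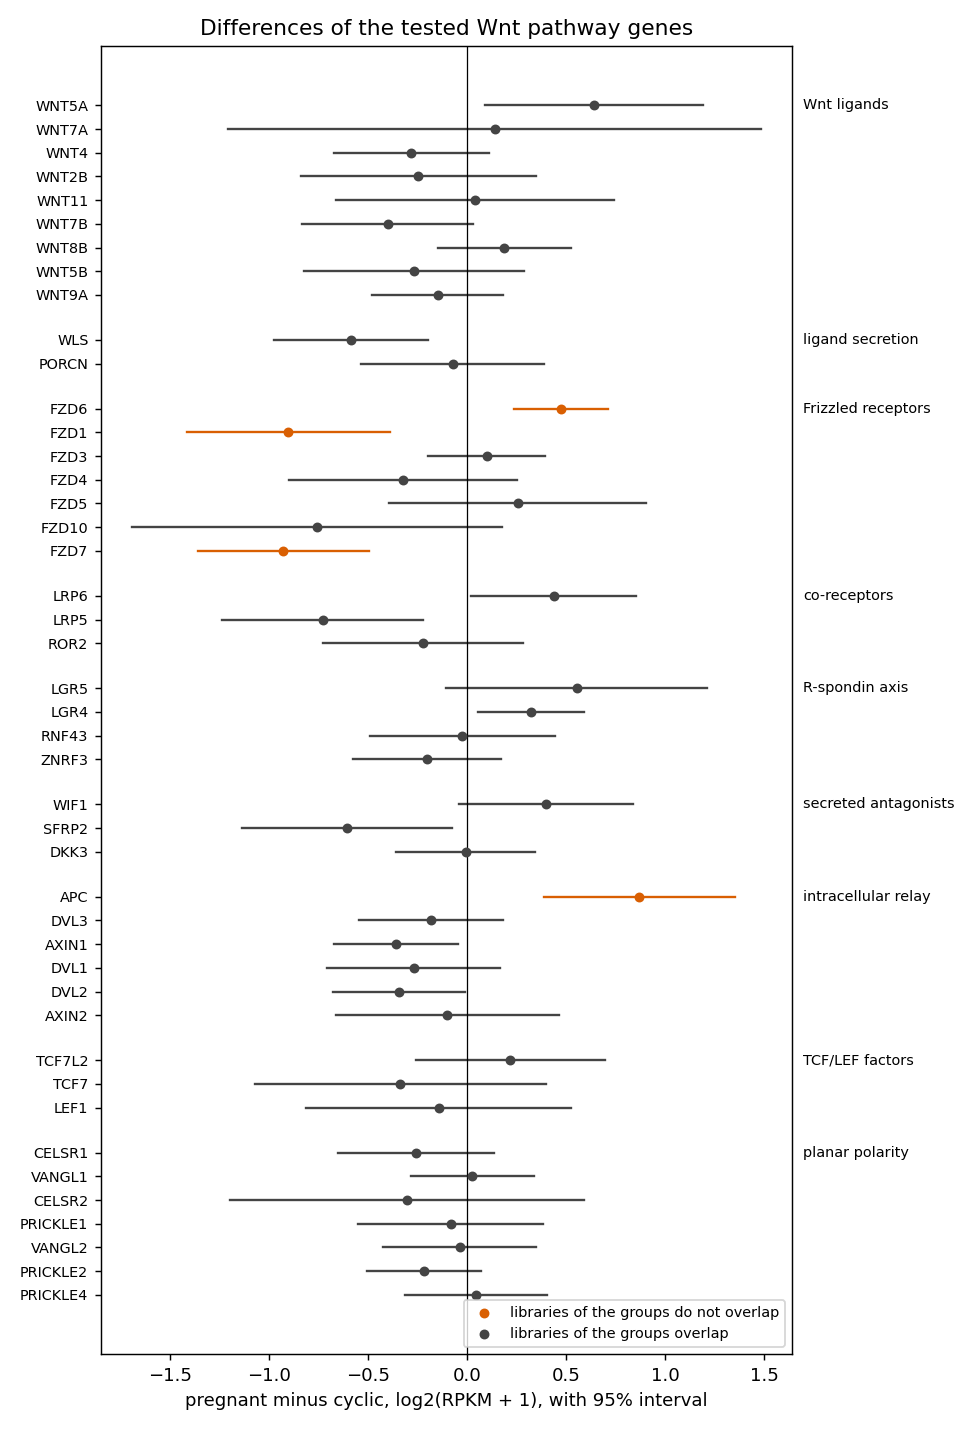
Log2 difference of each tested Wnt pathway gene, pregnant minus cyclic, on the log2(RPKM + 1) scale with limma's 95% interval (5 libraries per group). Orange marks FZD7, FZD1, FZD6 and APC, whose libraries did not overlap between groups. FZD1 and FZD7 lay at -0.90 and -0.93, and FZD6 and APC at 0.47 and 0.87.

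Among the 19 Wnt ligands, 9 were tested, and WNT5A, which acts mainly through pathways without beta-catenin, was the most abundant in every library. WNT5A stood at 25.4, 17.1, 25.1, 46 and 24.7 RPKM in pregnant libraries 1 to 5 and at 18.3, 13.1, 12.5, 15.4 and 26.2 RPKM in cyclic libraries 1 to 5. Pregnant library 4 was far above all others, and cyclic libraries 1 and 5 lay within the pregnant range, so the groups overlapped. The log2 difference was 0.64 (SE 0.25, 95% interval 0.09 to 1.19, adjusted p = 0.138, limma-trend). WNT5A made up 53.3 ± 6.27% of the summed RPKM of all 19 ligands in pregnant and 39.6 ± 6.25% in cyclic heifers (SD, n = 5 each).

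WNT7A, which in the mouse is made by the epithelium of the reproductive tract and patterns the oviduct and uterus, varied widely between libraries. It stood at 5.4, 1.54, 4.94, 14 and 0.766 RPKM in pregnant and 9.37, 1.95, 1.5, 1.18 and 8.51 RPKM in cyclic libraries. High and low libraries occurred in both groups, with pregnant library 4 and cyclic libraries 1 and 5 on top, and the difference was 0.14 with an interval of -1.21 to 1.48. WNT4, required for formation of the female tract in the mouse, averaged 3.94 ± 1.01 RPKM in pregnant and 5 ± 1.15 RPKM in cyclic heifers (SD, n = 5 each) and differed by -0.28 on the log2 scale. The close paralogs of these ligands had lower means: WNT5B averaged 1.07 ± 0.538 and 1.55 ± 0.94 RPKM, and WNT7B 1.27 ± 0.574 and 1.98 ± 0.56 RPKM, in pregnant and cyclic heifers. WNT7B differed by -0.40 (adjusted p = 0.205, limma-trend).

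Of the other tested ligands, WNT2B and WNT11 averaged 3.57 and 2.89 RPKM in pregnant and 4.2 and 2.98 RPKM in cyclic heifers. WNT8B and WNT9A averaged 1.77 and 0.953 RPKM in pregnant and 1.43 and 1.16 RPKM in cyclic heifers. Their log2 differences ran from -0.25 for WNT2B to 0.19 for WNT8B, all with intervals that included 0. The 10 ligands not tested were WNT2, WNT3A, WNT8A, WNT16, WNT9B, WNT10B, WNT6, WNT1, WNT10A and WNT3, and of these WNT2 reached 0.907 to 1.33 RPKM in pregnant and 0.567 to 1.05 RPKM in cyclic libraries. WNT1, WNT6, WNT10A and WNT10B never exceeded 0.152 RPKM and rested on 2 to 7 reads each over the 10 libraries, so no difference was detectable in them at this depth.

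WLS, the carrier that all lipid-modified Wnt proteins need to leave the cell, was lower in most pregnant libraries. Its levels were 36.2, 28.5, 30.9, 52.5 and 28.4 RPKM in pregnant and 55.4, 50.7, 42.4, 65.7 and 48.9 RPKM in cyclic libraries. Of the pregnant libraries 4 lay below every cyclic one, while pregnant library 4 lay among the cyclic values. The log2 difference was -0.59 (SE 0.18, adjusted p = 0.0987, limma-trend). PORCN, the acyltransferase that attaches the lipid, averaged 1.25 ± 0.514 RPKM in pregnant and 1.37 ± 0.492 RPKM in cyclic heifers (SD, n = 5 each) with a difference of -0.07. Its lowest values were in cyclic library 3 and in pregnant libraries 5 and 2, at 0.501, 0.747 and 0.773 RPKM.

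Frizzled receptors lay in opposite directions. FZD7 and FZD1, which with FZD2 form one branch of the family, were lower in every pregnant than in every cyclic library, and FZD6, of the branch with FZD3, was higher. FZD7 stood at 0.603, 1.15, 1.04, 1.77 and 1.11 RPKM in pregnant and 2.18, 3.08, 2.15, 4.53 and 3.57 RPKM in cyclic libraries. The highest pregnant value, in library 4, was still below the lowest cyclic value, in library 3. The log2 difference of -0.93 (SE 0.20, interval -1.36 to -0.50, adjusted p = 0.0934, limma-trend) was -1.42 with voom on the recovered reads, since the added 1 RPKM compresses a low gene.

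FZD1 stood at 2.83, 5.5, 6.21, 7.2 and 7.97 RPKM in pregnant and 8.08, 13.6, 10.1, 15.4 and 11.6 RPKM in cyclic libraries, a log2 difference of -0.90 (SE 0.23, adjusted p = 0.0934, limma-trend). Only the narrow gap between pregnant library 5 and cyclic library 1 separated the groups. FZD2, not tested, lay at 0.043 to 0.197 RPKM in pregnant and 0.061 to 0.389 RPKM in cyclic libraries, and the groups overlapped. FZD6 stood at 18, 21.3, 19.6, 17.9 and 17.2 RPKM in pregnant and 14.2, 13.9, 14.8, 11.3 and 12.2 RPKM in cyclic libraries. The lowest pregnant value, in library 5, lay above the highest cyclic value, in library 3, and the log2 difference was 0.47 (SE 0.11, interval 0.23 to 0.71, adjusted p = 0.0934, limma-trend). FZD3, its nearest relative and like FZD6 a planar polarity receptor in the mouse, averaged 5.43 ± 0.388 RPKM in pregnant and 5.07 ± 1 RPKM in cyclic heifers (SD, n = 5 each), a difference of 0.10.

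The ratio of FZD6 to FZD7 levels ran from 10.1 to 29.9 over pregnant libraries and from 2.50 to 6.89 over cyclic libraries, a description chosen after the values were seen. As FZD6 was higher and FZD7 lower in every pregnant library, the ratio had to separate the groups and is no further result. Both the stromal and the epithelial marker lists above were lower in pregnant libraries, as were FZD1 and FZD7. The median log2 difference was -0.73 over the 9 tested epithelial markers and -0.34 over the 10 tested stromal markers. The stromal sum was lower mostly through FBLN1 and SPARC. FBLN1 averaged 9.2 ± 4.19 RPKM in pregnant and 27.8 ± 10.4 RPKM in cyclic heifers, and SPARC 20.3 ± 7.55 and 36.7 ± 24.3 RPKM (SD, n = 5 each). Of the 10 tested stromal markers, 9 had log2 differences below 0 (90%, against 49.1% of all features). At an unadjusted p under 0.05 (limma-trend), 3 were lower (30%, against 11.9%), namely FBLN1, COL1A2 (-0.80) and FN1 (-0.90). Intervals for SPARC, VIM, DCN, POSTN, THY1, LUM and COL3A1 included 0. The part of stromal or epithelial RNA in the Frizzled differences was not tested. FZD10 averaged 2.22 ± 2.46 RPKM in pregnant and 4.07 ± 2.66 RPKM in cyclic heifers (SD, n = 5 each; log2 difference -0.76), with pregnant library 4 at 6.56 RPKM and the other pregnant libraries at 0.744 to 1.63 RPKM. FZD4, the receptor for the non-Wnt ligand norrin, averaged 4 and 5.19 RPKM, and FZD5 3.49 and 3.17 RPKM, in pregnant and cyclic heifers. FZD5 spanned 3.05 to 4.01 RPKM in pregnant and 1.38 to 5.53 RPKM in cyclic libraries, its cyclic values falling into libraries 2 and 5 at the top and 1, 3 and 4 below every pregnant value. FZD8, not tested, lay at 0.106 to 0.426 RPKM in pregnant and 0.348 to 1.13 RPKM in cyclic libraries, and FZD9 never exceeded 0.066 RPKM.

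The co-receptors LRP5 and LRP6, close paralogs that both pair with Frizzled, also lay in opposite directions. LRP5 stood at 3.55, 3.02, 3.31, 5.24 and 2.98 RPKM in pregnant and 5.98, 7.34, 3.28, 8.99 and 8.95 RPKM in cyclic libraries (log2 difference -0.73, SE 0.23, adjusted p = 0.102, limma-trend). LRP6 stood at 9.4, 9.72, 10.3, 5.26 and 10.3 RPKM in pregnant and 6.45, 5.94, 8.45, 4.58 and 6.21 RPKM in cyclic libraries (log2 difference 0.44, SE 0.19, adjusted p = 0.168, limma-trend). For LRP5 the groups overlapped only through cyclic library 3, which lay among the pregnant values, and pregnant library 4 was the pregnant library nearest the other cyclic ones. For LRP6 they overlapped only through pregnant library 4, and cyclic library 3 was the cyclic library nearest the pregnant ones.

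The ratio of LRP6 to LRP5 levels, taken after the values were seen, was 2.65, 3.22, 3.10, 1.0 and 3.46 in pregnant libraries 1 to 5 and 1.08, 0.810, 2.58, 0.509 and 0.694 in cyclic libraries 1 to 5. Cyclic library 3 thus lay close to the pregnant values and pregnant library 4 among the cyclic ones. Without cyclic library 3 the LRP5 difference was -0.94 with an adjusted p of 0.0311 and that of LRP6 was 0.53 with an adjusted p of 0.0701 (limma-trend). ROR2, a receptor tyrosine kinase for WNT5A, averaged 2.46 ± 0.948 RPKM in pregnant and 3.01 ± 0.904 RPKM in cyclic heifers (SD, n = 5 each; log2 difference -0.22), and ROR1, not tested, spanned 0.218 to 1.18 RPKM in pregnant and 0.534 to 1.25 RPKM in cyclic libraries.

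**Figure D3:**
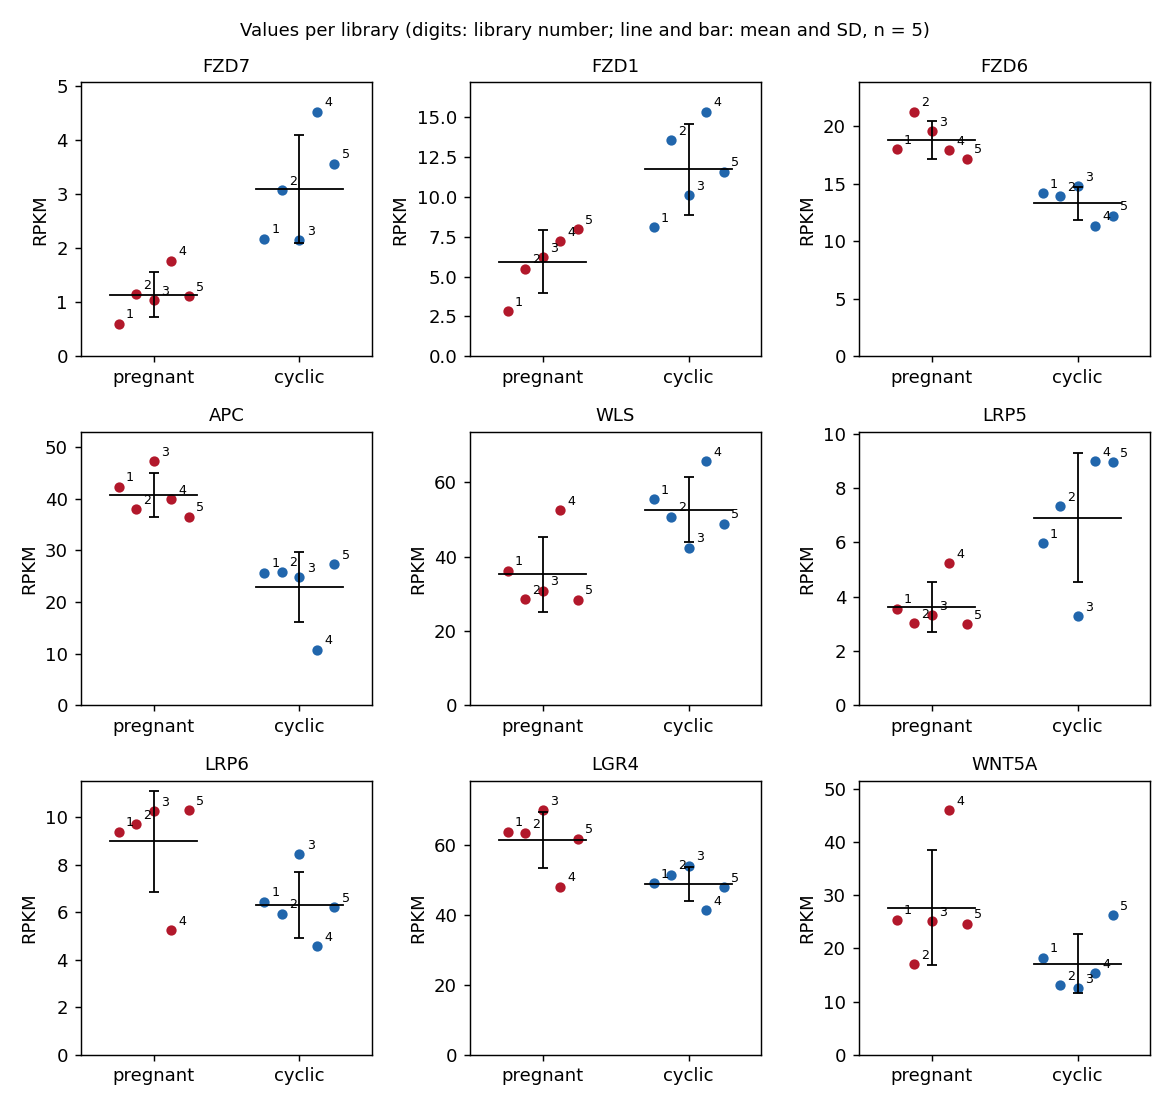
Level in RPKM of 9 Wnt pathway genes in each library, pregnant left and cyclic right, with the library number beside each point and the mean and SD of 5 libraries in black. FZD7, FZD1, FZD6 and APC separate the groups, while in WLS, LRP5, LRP6 and LGR4 pregnant library 4 lies within the cyclic range. In LRP5 pregnant libraries 1 and 3 also do, above the low cyclic library 3.

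R-spondin receptors were the most abundant members. LGR5, known as a stem cell marker of the intestine and itself a Wnt target, stood at 215, 123, 203, 162 and 124 RPKM in pregnant and 183, 173, 74.1, 64.7 and 103 RPKM in cyclic libraries. The cyclic libraries split into 1 and 2, which lay within the pregnant range, and 3, 4 and 5, which lay below it. The log2 difference was 0.55 (SE 0.30, interval -0.11 to 1.21, adjusted p = 0.251, limma-trend) and 0.31 with array weights. Over fits that left out 1 library it ran from 0.36 without cyclic library 4 to 0.74 without cyclic library 1. LGR4, its widely expressed paralog, stood at 63.8, 63.3, 70.0, 48.1 and 61.9 RPKM in pregnant and 49.1, 51.5, 54.1, 41.3 and 48 RPKM in cyclic libraries. All pregnant libraries but library 4 were above every cyclic one (log2 difference 0.32, SE 0.12, adjusted p = 0.13, limma-trend). LGR6, not tested, ranged over 0.487 to 1.26 RPKM in pregnant and 0.346 to 0.946 RPKM in cyclic libraries.

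The R-spondin ligands themselves were low, and none was tested. RSPO3 reached 0 to 0.785 RPKM in pregnant and 0.206 to 3.09 RPKM in cyclic libraries, where cyclic library 1 held the highest value. RSPO1, RSPO2 and RSPO4 stayed at or under 0.991, 0.324 and 0.188 RPKM. Their targets RNF43 and ZNRF3 averaged 12.7 ± 3.12 and 1.25 ± 0.424 RPKM in pregnant and 13.3 ± 4.78 and 1.59 ± 0.438 RPKM in cyclic heifers (SD, n = 5 each), with log2 differences of -0.02 and -0.20.

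Among 9 secreted antagonists, 3 were tested. WIF1, which binds Wnt proteins directly, was the most abundant, at 38.7, 28.5, 26.2, 31.1 and 30.9 RPKM in pregnant and 23.9, 28.9, 18.2, 15.4 and 34.3 RPKM in cyclic libraries (log2 difference 0.40, adjusted p = 0.22, limma-trend). The groups overlapped, and with array weights the difference was 0.06. SFRP2, a decoy receptor with a Frizzled-like domain, made mainly by fibroblasts in many tissues, stood at 1.79, 1.61, 1.5, 3.42 and 1.21 RPKM in pregnant and 4.75, 2.88, 1.77, 3.04 and 4.87 RPKM in cyclic libraries (log2 difference -0.61, adjusted p = 0.141, limma-trend). Pregnant library 4 lay among the cyclic values and cyclic library 3 among the pregnant ones. The part of the stromal markers, described above, was not tested. DKK3 averaged 1.16 ± 0.423 RPKM in pregnant and 1.15 ± 0.271 RPKM in cyclic heifers (SD, n = 5 each). Of the other DKK genes, DKK1 and DKK2 never exceeded 0.049 and 0.331 RPKM and DKK4 was listed at 0, and SFRP1, SFRP4 and SFRP5 never exceeded 0.351, 0.649 and 0.667 RPKM.

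Inside the cell, APC, the scaffold of the beta-catenin destruction complex, was higher in every pregnant than in every cyclic library. APC stood at 42.3, 37.9, 47.3, 39.9 and 36.5 RPKM in pregnant and 25.7, 25.8, 24.8, 10.8 and 27.3 RPKM in cyclic libraries. Cyclic library 4 was far below the others, and the log2 difference of 0.87 (SE 0.22, interval 0.38 to 1.35, adjusted p = 0.0934, limma-trend) was 0.63 without it. AXIN1, the other scaffold of the complex, averaged 8.96 ± 0.918 RPKM in pregnant and 11.9 ± 2.33 RPKM in cyclic heifers (SD, n = 5 each), a difference of -0.36 (adjusted p = 0.139, limma-trend). Cyclic libraries 1 and 3 were its lowest cyclic ones, and cyclic library 3 lay within the pregnant range.

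The 3 Dishevelled genes had log2 differences of -0.27 for DVL1, -0.34 for DVL2 and -0.18 for DVL3. DVL3 and DVL1 were the more abundant, at 10.4 ± 1.76 and 7.24 ± 0.907 RPKM in pregnant and 12 ± 2.4 and 9.25 ± 2.82 RPKM in cyclic heifers (SD, n = 5 each). DVL2 averaged 2.08 ± 0.379 RPKM in pregnant and 2.94 ± 0.639 RPKM in cyclic heifers. In all 3 genes cyclic library 3 held the lowest cyclic value, and leaving it out gave an adjusted p of 0.0492 for DVL2 (limma-trend). CTNNB1, beta-catenin itself and no member by name, averaged 139.5 ± 10.6 RPKM in pregnant and 132 ± 28.1 RPKM in cyclic heifers (SD, n = 5 each), and its log2 difference was 0.11 with an interval of -0.22 to 0.43. That sign was reversed, to -0.022, with array weights.

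The TCF/LEF factors, which bind DNA for beta-catenin, all had intervals of the difference that included 0. TCF7L2 averaged 9.75 ± 1.89 RPKM in pregnant and 8.54 ± 3.16 RPKM in cyclic heifers (SD, n = 5 each; log2 difference 0.22). TCF7 averaged 3.88 ± 2.59 RPKM in pregnant and 4.81 ± 1.8 RPKM in cyclic heifers (log2 difference -0.34), its highest values being in pregnant library 1 and cyclic library 5. LEF1 averaged 1.3 ± 1.32 RPKM in pregnant and 1.38 ± 0.724 RPKM in cyclic heifers (log2 difference -0.15). All 3 had adjusted p-values of at least 0.532 (limma-trend).

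Several target genes of the beta-catenin branch, picked after the values were seen, had their highest values in the same libraries, 1 from each group, while other targets, among them LGR5, TCF7 and the Wnt-induced inhibitor APCDD1, did not. AXIN2, induced by beta-catenin in most tissues, stood at 1.16, 0.89, 1.47, 2.85 and 0.658 RPKM in pregnant and 2.96, 1.66, 1.14, 0.885 and 1.16 RPKM in cyclic libraries. Pregnant library 4 and cyclic library 1 held its highest values, and the group difference was -0.10 (SE 0.26, adjusted p = 0.826, limma-trend). LEF1, also a target, stood at 0.854, 0.468, 0.924, 3.63 and 0.619 RPKM in pregnant and 2.62, 0.841, 1.28, 1.24 and 0.908 RPKM in cyclic libraries, with the same pair of libraries on top. The same held for RNF43, at 18 RPKM in pregnant library 4 and 21.3 RPKM in cyclic library 1 and between 9.48 and 13.6 RPKM in the other 8 libraries. For ZNRF3 the pair stood at 1.95 and 2.19 RPKM, with cyclic library 4 close behind at 1.9 RPKM. For WNT7A, a ligand outside the target list, the pair stood at 14 and 9.37 RPKM, with cyclic library 5 next at 8.51 RPKM.

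NKD1 and NKD2, intracellular inhibitors of which only NKD1 stands in the target list, were not members by name but had the same pair on top. NKD1 stood at 0.813, 1.03, 0.957, 3.25 and 0.555 RPKM in pregnant and 8.88, 1.17, 0.956, 2.58 and 1.22 RPKM in cyclic libraries, so that cyclic library 1 exceeded all others. NKD2, not tested, stood at 1.03 RPKM in pregnant library 4 and 1.11 RPKM in cyclic library 1. Counted over all rows with a value, tested or not, this pair was on top in 6 of 68 members (8.82%), 5 of 29 genes of the target list (17.2%) and 3.19% of all features. These counts are nearly one set of genes, since AXIN2, LEF1, RNF43 and ZNRF3 stand in both lists. The pair and the count were picked after the values were seen. Among the 44 tested members another pair, cyclic libraries 1 and 4, held the highest values of as many genes, 5 each (11.4%). Over all tested features the shares were 3.92% for that pair and 2.68% for cyclic library 1 with pregnant library 4. The genes were WLS, DVL2, PRICKLE2, VANGL2 and WNT7B against AXIN2, LEF1, RNF43, WNT7A and ZNRF3.

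Some stromal markers had the same libraries on top. Pregnant library 4 and cyclic library 1 were on top in 4 of 17 stromal markers (23.5%, against 3.19% of all features with a value). These were COL6A1, COL6A2, DCN and DPT. Only DCN among them was tested, 1 of 10 tested stromal markers (10%, against 2.68% of all tested features), while the others averaged under 1 RPKM. The pair was on top in 0 of 9 epithelial, 0 of 20 ciliated and 0 of 10 smooth muscle markers. It was also on top in 0 of 9 endothelial and 0 of 12 leukocyte markers. At the share of all features, lists this short would often hold 0 such genes. DCN, a proteoglycan of connective tissue, stood at 8.93 RPKM in pregnant library 4 and 23 RPKM in cyclic library 1. COL6A1, a collagen chain, stood at 1.49 RPKM in pregnant library 4 and 3.86 RPKM in cyclic library 1. Cyclic library 1 alone was highest in 8 of the 17 (47.1%, against 11.3% of all features with a value), also COL1A1, COL1A2, COL3A1 and POSTN. The part of stromal RNA in the levels of the target genes was not tested.

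**Figure D4:**
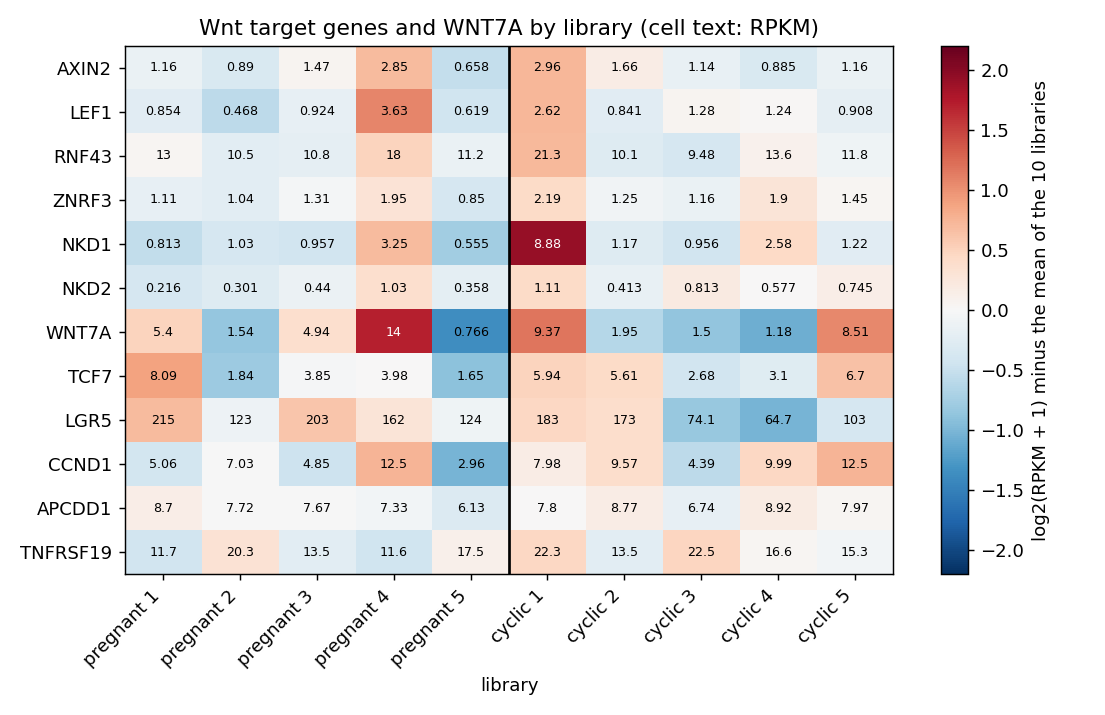
Levels of Wnt target genes, NKD2 and WNT7A in each library, chosen after the values were seen. Rows are genes, columns are libraries with pregnant left of the black line and cyclic right of it, colour is log2(RPKM + 1) minus the mean of the 10 libraries, and cell text is RPKM. AXIN2, LEF1, RNF43, ZNRF3, NKD1, NKD2 and WNT7A are highest in pregnant library 4 and cyclic library 1, while TCF7, LGR5, CCND1, APCDD1 and TNFRSF19 have other pairs of libraries on top.

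Of a list of 32 target genes, 31 were in the table and 25 were tested, none passed an adjusted p of 0.05 and 3 were lower at an unadjusted p under 0.05 (12%, against 11.9% of all features) and 0 higher (against 15.7%), with a median log2 difference of -0.40. The log2 difference was below 0 in 23 of the 25 (92%, against 49.1% of all features), a count that includes the members AXIN2, LEF1, TCF7, RNF43 and ZNRF3. MYC, a driver of cell growth, averaged 2.61 ± 1.72 RPKM in pregnant and 5.84 ± 1.52 RPKM in cyclic heifers (SD, n = 5 each; log2 difference -1.0, adjusted p = 0.0934, limma-trend). JAG1, a Notch ligand, averaged 3.34 ± 0.859 RPKM in pregnant and 6.19 ± 2.45 RPKM in cyclic heifers (log2 difference -0.69), and CYR61, a secreted matrix protein, 1.86 ± 0.648 and 3.82 ± 1.9 RPKM (-0.71). EPHB2, a receptor of ephrins, differed by -0.44. Several of these genes respond to other signals as well.

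None of the 7 tested planar polarity genes had an unadjusted p under 0.05 (against 27.5% of all features), and 5 of the 7 had log2 differences below 0 (71.4%, against 49.1%), with a median of -0.08. CELSR1, the cadherin that aligns cilia in the mouse oviduct, was the most abundant. It stood at 12.7, 14.1, 16.3, 13.3 and 21.2 RPKM in pregnant and 18.2, 18.2, 13.3, 25.8 and 18.9 RPKM in cyclic libraries (log2 difference -0.26, interval -0.65 to 0.13). VANGL1 and VANGL2, membrane proteins on the side of the cell opposite Frizzled, averaged 13.1 ± 2.03 and 5.1 ± 0.212 RPKM in pregnant and 12.9 ± 2.09 and 5.47 ± 1.85 RPKM in cyclic heifers (SD, n = 5 each). Their log2 differences were 0.03 (interval -0.28 to 0.34; -0.055 with upper-quartile scaling) and -0.04 (interval -0.43 to 0.35).

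VANGL2 was tight in pregnant libraries, at 4.89 to 5.45 RPKM, and spread over 3.87 to 7.99 RPKM in cyclic libraries. The top cyclic value was in library 4, which was highest in 20.8% of all tested features. CELSR2, which acts in ciliated ependyma of the mouse, ranged over 3.48 to 8.93 RPKM in pregnant and 2.06 to 14.4 RPKM in cyclic libraries (log2 difference -0.31), and CELSR3 never exceeded 0.046 RPKM. PRICKLE1 and PRICKLE2, cytoplasmic partners of VANGL, averaged 5.97 ± 1.56 and 2.7 ± 0.234 RPKM in pregnant and 6.41 ± 1.97 and 3.34 ± 0.607 RPKM in cyclic heifers (SD, n = 5 each), with differences of -0.08 and -0.22. PRICKLE4 averaged 1.25 ± 0.341 RPKM in pregnant and 1.19 ± 0.366 RPKM in cyclic heifers. The 20 ciliated cell markers summed to 1638 to 1806 RPKM in pregnant and 1606 to 1978 RPKM in cyclic libraries, with overlap, but that sum covered differences both ways. Of 19 tested, 6 were lower at an unadjusted p under 0.05 (31.6%, against 11.9% of all features) and 2 higher (10.5%, against 15.7%). Without overlap, 3 were lower (15.8%, against 2.05%) and 1 was higher (5.26%, against 4.91%). FOXJ1, the master regulator of motile cilia, averaged 61.4 ± 11.1 RPKM in pregnant and 113 ± 31.1 RPKM in cyclic heifers (SD, n = 5 each; log2 difference -0.83), and the axonemal dynein gene DNAI1 18.9 ± 0.478 and 28.2 ± 5.48 RPKM (-0.53). CCDC39 and ENKUR, which encode other parts of the cilium, were the higher ones, at 0.96 and 0.85.

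Of 27 other tested genes of planar polarity and its effectors, a list that shares FZD3, FZD6, ROR2 and the DVL genes with the members, 6 were higher and 6 lower at an unadjusted p under 0.05 (22.2% each, against 15.7% and 11.9% of all features) and none passed after adjustment. ROCK1 and ROCK2, kinases that act downstream of RHOA on the cytoskeleton, had the largest differences of the genes named from this list. ROCK1 stood at 25.5, 19.2, 21.5, 13.2 and 20.1 RPKM in pregnant and 10.9, 11.7, 10.5, 3.42 and 9.37 RPKM in cyclic libraries, without overlap (log2 difference 1.10, SE 0.28, adjusted p = 0.0934, limma-trend). ROCK2 averaged 10.9 ± 2.62 RPKM in pregnant and 4.99 ± 1.76 RPKM in cyclic heifers (SD, n = 5 each; log2 difference 1.02). FUZ, a planar polarity effector needed for ciliogenesis, averaged 2.85 ± 0.585 RPKM in pregnant and 4.94 ± 0.924 RPKM in cyclic heifers (log2 difference -0.62), in the opposite direction to FZD6.

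Among 30 tested genes of core signalling, 1 was higher and 3 were lower at an unadjusted p under 0.05 (3.33% and 10%, against 15.7% and 11.9% of all features), with a median log2 difference of -0.05. TLE3, a corepressor that occupies TCF/LEF factors, stood at 7.64, 9.09, 10.1, 9.87 and 8.77 RPKM in pregnant and 15.6, 17.1, 11.6, 22.6 and 15.4 RPKM in cyclic libraries, without overlap (log2 difference -0.77, SE 0.16, adjusted p = 0.0934, limma-trend). The corepressor CTBP1 and the beta-catenin cofactor BCL9 differed by -0.58 and -0.50, and the casein kinase CSNK1G3, which phosphorylates LRP6, by 0.50. Of 15 tested genes among other receptors and antagonists, 3 were higher and 3 lower at that threshold (20% each, against 15.7% and 11.9% of all features; median -0.14). USP8, a deubiquitinase that in the fly and in human cells returns Frizzled to the surface, stood at 27.5, 27.6, 31.5, 26.6 and 29.6 RPKM in pregnant and 19.3, 19.1, 19.7, 6.61 and 16.9 RPKM in cyclic libraries, without overlap (log2 difference 0.86, adjusted p = 0.0955, limma-trend). NDP, which encodes norrin, averaged 9.16 ± 4.2 RPKM in pregnant and 5.07 ± 0.954 RPKM in cyclic heifers (SD, n = 5 each; log2 difference 0.67). GPC4, a glypican, and DKKL1 differed by -0.69 and -0.58.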

How the data were processed

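Total RNA of oviduct epithelial cells was converted to stranded, oligo-dT selected TruSeq libraries, per the labels' protocols. No aligner, read counter or genome build is named, so these are not given in the sources used. The authors deposited a table of 24596 features by 10 libraries, whose values behave as RPKM although the header says only expression. Library totals were recovered as those at which 8 mitochondrial genes of known length give whole reads, and feature lengths as the shortest at which all 10 values do (tolerance 0.02 reads plus rounding). Of the 12834 tested features 12791 were resolved, against 0.4% of 500 jittered ones. All 70 members matched a RefSeq symbol (ARS-UCD2.0). They were compared with limma-trend (limma 3.58.1, R 4.3.3) on log2(RPKM + 1) of the features averaging 1 RPKM or more. The model held the group alone, p-values were adjusted by Benjamini-Hochberg over all features at a threshold of 0.05, and the fit was tested on simulated data. Differences are pregnant minus cyclic on that scale, where low genes show too small a change. Tables and figures were made with matplotlib 3.10.9, pandas 2.3.3, numpy 2.4.6 and Python 3.11.15. Members and lists were chosen with earlier results of these data known. Named genes were up to 10 members per direction of smallest p, the most abundant tested member of each role, those without overlap, 12 fixed genes, and up to 4 genes per other list. All other members are given by role. Alternatives were pseudocount 0.1, other filters, array weights, other scalings, voom, a replicate block, a threshold of 0.1 and leaving out each library.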

Additional observations from a re-analysis of the deposited data

Results flagged for a closer look

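A value at the edge of a group of 5 libraries is given here where more than 0.71 of that group's range lay between it and its neighbour. For independent groups of normal values chance brings this about in some 1 of 20. RPKM values need not be normal and all groups here share the same 10 libraries, so that rate is no measure for the count. Such a value was found in 11 of 84 groups of the named genes. Pregnant library 4 stood apart in 6 of them. It was above the other pregnant libraries for WNT5A (46 RPKM), FZD10 (6.56 RPKM), LRP5 (5.24 RPKM), SFRP2 (3.42 RPKM) and MYC (5.66 RPKM), and below them for LRP6 (5.26 RPKM). Cyclic library 4, the one with the fewest reads, stood below the other cyclic libraries for APC (10.8 RPKM), USP8 (6.61 RPKM) and ROCK1 (3.42 RPKM) and above them for CYR61 (7.14 RPKM). Cyclic library 3 stood below the others for CTBP1 (9.86 RPKM). Without pregnant library 4 the log2 differences were 0.44 for WNT5A, -0.84 for LRP5 and 0.60 for LRP6, and without cyclic library 4 that of APC was 0.63.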

How the results depend on the processing

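Of 42 named genes, 36 kept the direction of their log2 difference under every setting run. Those that turned had differences near 0 or wide intervals. FZD5 was -0.22 with array weights (with or without the trend) and -0.30 with voom and quality weights. WNT7A was -0.15 with array weights (with or without the trend), -0.074 with voom, -0.43 with voom and quality weights and between -0.27 and 0.50 over fits that left out 1 library. AXIN2 lay between -0.29 and 0.069 over those fits, VANGL1 between -0.059 and 0.083 and VANGL2 between -0.13 and 0.091. VANGL1 was -0.055 with upper-quartile scaling. VANGL2 was 0.11 with array weights (either way), 0.0056 with voom and 0.17 with voom and quality weights. CTNNB1 was -0.022 with array weights (either way) and -0.012 with voom and quality weights. The count of all features past an adjusted p of 0.05, which was 0, became 4789 with array weights in place of the trend, 4831 with both, 4922 with voom and quality weights, 1018 at a threshold of 0.1, and 0 to 2213 over fits without 1 library, the highest being without cyclic library 3 and 56 without pregnant library 4. The count of members, also 0, became 14, 14, 17, 5 and 0 to 10 in the same order. At an unadjusted p under 0.05, the 5 higher members became 2 with upper-quartile scaling and 3 to 5 without 1 library. The 7 lower members became 4 with a filter at a mean RPKM of 3, where 29 members were tested, 13 with array weights, 12 with array weights and the trend, 13 with voom and quality weights, and 4 to 11 without 1 library. The cause of these shifts was not tested. A threshold of 0.1 for adjusted p gives no value for the counts at an unadjusted p. No general pairing by shared library number was seen: same-numbered deviations correlated between -0.34 and 0.28 over tested features. Only pregnant library 4 correlated best with the cyclic library of its own number. Correlations of so few libraries cannot exclude a pairing. With the replicate block 0 features and 0 members passed, and 5 members were higher and 6 lower at an unadjusted p under 0.05. Depth limits the 26 members not tested and WNT5B, which fell to 9 reads in 1 library.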

Other observations

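In the RefSeq gene order (ARS-UCD2.0), 8 of the 19 Wnt ligands stand as 4 neighbouring pairs: WNT9B with WNT3, WNT6 with WNT10A, WNT1 with WNT10B, and WNT3A with WNT9A. Of these 8 only WNT9A reached a mean of 1 RPKM. Its neighbour WNT3A averaged 0.668 ± 0.258 RPKM in pregnant and 0.728 ± 0.337 RPKM in cyclic heifers, against 0.953 ± 0.273 and 1.16 ± 0.281 RPKM for WNT9A (SD, n = 5 each). WNT9B reached 0.053 to 0.14 RPKM in pregnant and 0.1 to 0.566 RPKM in cyclic libraries, and WNT3 was listed at 0 in all 10. The ligands with the highest levels, WNT5A, WNT7A, WNT4 and WNT2B, belong to none of these pairs.

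LGR5 made up between 14.1 and 35.2% of the summed RPKM of all 70 members in a library, and within the cyclic group alone from 14.1% in library 4 to 31% in library 2. Of norrin and its receptor complex, NDP differed by 0.67, the receptor FZD4 by -0.33, the co-receptor LRP5 by -0.73 and the partner TSPAN12 by 0.10 on the log2 scale. The intervals of FZD4 and TSPAN12 included 0. Across the 44 tested members, recovered transcript length and the log2 difference had a Spearman rho of -0.01, and -0.02 over 12791 features, a description across genes, which are not independent replicates.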
